A study of Mus musculus with 9 samples.

Results

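Whole-liver RNA sequencing was compared between 3 livers with miR-22-treated hepatocellular carcinoma (HCC) and 3 livers with untreated HCC, chosen by their sample titles from the 9 libraries of the series. The other 3 libraries came from healthy livers, labelled WT and without treatment, and entered the same fit as a reference. All mice were female. Per the protocol, the HCC mice were 6 weeks old and of strain FVB/N, while the strain field of the same labels reads C57BL/6. Tumors were started with sleeping beauty transposon plasmids, brought into hepatocytes by a fast, large-volume tail vein (hydrodynamic) injection, and the series text and the methods of the study name RAS/AKT as the oncogene pair of these livers. Both HCC groups received 1 intravenous dose of AAV8 at week 1 after the oncogenes. The virus was a blank control in untreated HCC and carried mature mmu-miR-22-3p behind a CMV promoter, which is not restricted to hepatocytes, in miR-22-treated HCC. Livers were collected at week 5, which is 4 weeks after the virus. The comparison asks which hepatic transcripts differ once tumor-bearing livers carry extra miR-22.

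A microRNA is loaded into Argonaute and pairs through its seed, bases 2 to 8, with matching sites that lie mostly in the 3′ untranslated region (UTR) of an mRNA, which is then translated less and often degraded. miR-22 is abundant in healthy hepatocytes and has been described as a tumor suppressor in liver. AKT and RAS are oncogenes that drive growth, glycolysis and lipid synthesis, while mature hepatocytes make plasma proteins, urea, bile acids and glucose. The strand carried by the virus and its passenger strand are printed below with the seed in capitals, as RefSeq lists them on GRCm38.p6, to show the letters that a target site must match.
mmu-miR-22-3p: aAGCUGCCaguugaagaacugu
mmu-miR-22-5p: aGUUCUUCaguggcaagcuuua
Both strands come from the gene Mir22, at chr11:75354542-75354636 on the plus strand of GRCm39, inside an exon of its host transcript Mir22hg (chr11:75352365-75357502). These libraries held mRNA and long RNA, so the mature miR-22 itself was not measured.

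Of the 55401 genes listed, 15717 passed the filter on low counts, and 2167 of them (13.8%) were called different between miR-22-treated and untreated HCC. A call required a fold change beyond 1.5 together with an adjusted p (Benjamini-Hochberg) below 0.05. The 1308 genes that were higher are 8.32% of the genes tested, and the 859 that were lower are 5.47%, so these are the shares to hold a gene list against. Rises were larger than falls: 192 genes were over 4-fold higher and 12 over 4-fold lower, and the median log2 fold change was 1.04 among the higher and −0.86 among the lower genes. Over all tested genes the median was 0.00199. In 39.3% of the tested genes the 3 treated and the 3 untreated values did not overlap, with 19.7% higher and 19.6% lower in treated livers. Library totals ran from 16664659 to 23908392 counts, and livers of the same group differed by more than counting error (chi-square per degree of freedom of 6.13 to 28.4). The share of counts from mitochondrial genes was 2.53% to 2.83% in untreated and 3.05% to 3.68% in treated livers. Untreated replicate 4 and treated replicate 4 lay closest of all pairs across the 2 groups, with an SD of 0.43 for their log2 differences against 0.30 to 0.42 between livers of the same HCC group. Calls numbered 2424 without that untreated liver and 2660 without that treated liver.

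Treated replicate 2 carried transcripts of pancreas acinar cells, and the counts of each gene list are therefore given with and without that liver. Without it, 1887 of 16192 genes (11.7%) were called, 1189 higher (7.34%) and 698 lower (4.31%). The 2 sets shared 1679 genes, all in the same direction, which is 77.5% of the 2167 genes and 89.0% of the 1887. Calls that held in each of the 6 fits leaving out 1 HCC liver numbered 1185, of which 851 were higher and 334 lower. Below, values are TMM-normalized counts of replicates 2, 3 and 4 in that order, errors of log2 fold changes are standard errors (SE) with n = 3 livers a group, and p-values measure the spread between these livers.

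The constructs and tumor markers were checked first. Akt1, the serine/threonine kinase gene matching the injected oncogene, had 31315, 32454 and 22700.0 normalized counts in untreated livers, 15472, 13027 and 21424 in treated livers and 2039 ± 57.5 (SD, n = 3) in healthy livers. Its level was lower in all 3 treated livers, with a log2 fold change of −0.79 ± 0.18 (adjusted p = 0.00786). Nras gave 1339, 1499 and 1228 against 1073, 1034 and 1069, a log2 fold change of −0.36 ± 0.09 that stayed under the fold threshold (adjusted p = 0.0129). How many of these reads came from the plasmids rather than the mouse genes was not tested. Afp, the fetal plasma protein used as a liver tumor marker, had 38332, 25629 and 19291 in untreated and 16751, 10425 and 18181 in treated livers (log2 fold change −0.88 ± 0.26, adjusted p = 0.0264). Untreated replicate 2 held the highest Afp level, and without that liver Afp was no longer called (−0.57, adjusted p = 0.13), nor without untreated replicate 3 (0.0543) or treated replicate 3 (0.11). Gpc3, an oncofetal proteoglycan of the cell surface, fell by 0.68 ± 0.17 on the log2 scale from 1565, 1439 and 1392 to 883, 765 and 1092 (adjusted p = 0.0125), and it lost the call without untreated replicate 2 (adjusted p = 0.0573) or treated replicate 3 (0.06). Both markers stayed far above their healthy levels of 276 ± 62.6 and 15.7 ± 11.

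Mir22hg, the host transcript of miR-22, rose in every treated liver, from 257, 398 and 399 to 634, 619.9 and 542 normalized counts (log2 fold change 0.76 ± 0.16, adjusted p = 0.00452). It remained below the healthy level of 1202 ± 151, and without untreated replicate 2 its log2 fold change of 0.58 fell just short of the fold threshold. Whether any of its reads came from the virus rather than the mouse gene was not tested. Among the 29 tested members of the list of host gene and reported targets, 5 were higher and 4 lower (5 and 4 without treated replicate 2), with a median log2 fold change of −0.12. The higher members were Mir22hg, Esr1, Ppara, Ppargc1a and Sirt1, and the lower ones Bmp7, Slc2a1, Fgfr1 and Ccna2. The lower members numbered 2 without untreated replicate 3 or treated replicate 3, and both fits lost Fgfr1 (adjusted p of 0.101 and 0.0864) and Ccna2 (0.0819 and 0.108). Ccna2 was also not called without treated replicate 2 (0.0737) or untreated replicate 2 (0.0918). Esr1, the estrogen receptor alpha gene, rose from 281, 295 and 307 to 1184, 1381 and 853 and Ppara, the nuclear receptor of fatty acid oxidation, from 906, 906 and 1262 to 2624, 3331 and 2389, both without overlap. Hif1a, the oxygen-sensing transcription factor gene, had 2197, 2063 and 1778 in untreated and 1878, 1890.5 and 1778 in treated livers, and the groups overlapped (log2 fold change −0.12 ± 0.09, adjusted p = 0.367). Cdk6, a G1 cyclin-dependent kinase, and Rcor1, a subunit of the CoREST repressor complex, stood lower in all 3 treated livers at under 1.5-fold, with log2 fold changes of −0.49 ± 0.08 and −0.48 ± 0.08.

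To see which of these transcripts hold a site for the seed, the 3′ UTR of each canonical transcript (GENCODE vM39, GRCm39) was searched on its sense strand for GGCAGCTA, the 8mer that pairs with the whole seed and adds an A, and for GGCAGCT, the 7mer contained in it. Of the 28 reported targets with a 3′ UTR, 6 held the 8mer, 14 the 7mer alone and 8 neither, Hif1a among the last. Other kinds of seed site and other transcripts of a gene were not searched, so these 8 may still hold a site. For Hif1a, the study shows partial pairing of its 3′ UTR with miR-22. Of the 20 with either of the searched sites, 3 were higher and 3 lower. The 4 windows below, 30 bases each with the 8mer in capitals, belong to members that moved in different directions, and each lies in 1 exon of the 3′ UTR.
Slc2a1, chr4:118993691-118993720, plus strand: tctggagcacaGGCAGCTAgatgagacctc
Arrb1, chr7:99250802-99250831, plus strand: gtgacagttttGGCAGCTAaatgatgacca
Sirt1, chr10:63155922-63155951, minus strand: ccaaaacttgtGGCAGCTAactttttaaaa
Esr1, chr10:4953626-4953655, plus strand: aaattattcagGGCAGCTAattttgctttt
Slc2a1, the glucose transporter GLUT1, fell from 401, 454 and 338 to 269.6, 203 and 236 (log2 fold change −0.75 ± 0.15), and Arrb1, a beta-arrestin gene, stood at −0.53, under the fold threshold. Sirt1, a NAD-dependent deacetylase gene, carries the same 8 letters and rose from 199, 202 and 222 to 279.6, 402 and 359.9 (log2 fold change 0.74 ± 0.14), as did Esr1. Across the 13430 tested genes with a 3′ UTR of at least 50 bases, the 375 with an 8mer had a median log2 fold change of −0.075 with 6.93% higher and 7.73% lower, and the 1912 with the 7mer alone −0.055 with 5.54% higher and 7.58% lower. The 11143 genes with neither gave −0.0090 with 7.95% higher and 5.79% lower. Genes with a site also have longer 3′ UTRs, with a median of 2967 bases for the 8mer against 1147 bases for neither, and the part of UTR length in these medians was not tested here.

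The genes with the smallest p-values among calls that held whichever liver was left out are plotted liver by liver.

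**Figure D1:**
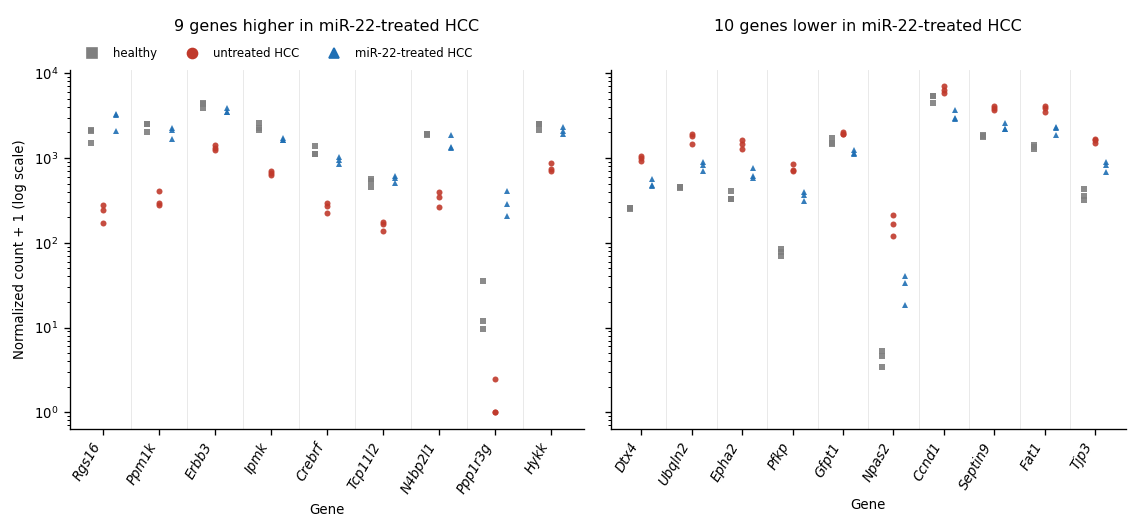
Normalized counts plus 1 (log axis) of 9 of the 10 higher and the 10 lower genes with the smallest p among calls that held in all 6 fits leaving out 1 HCC liver. Genes were taken only where the 3 treated and 3 untreated livers do not overlap, and each point is 1 liver. Ppp1r3g rises from 0 to 1.45 in untreated livers to between 205 and 406 in treated livers.

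Rgs16, a brake on G protein signaling, had the smallest p-value and rose from 171, 281 and 246 in untreated to 2106, 3247 and 3267 in treated livers (log2 fold change 3.62 ± 0.22, adjusted p = 6.38e-06). Ppm1k, the phosphatase that activates branched-chain ketoacid dehydrogenase, went from 275, 291 and 404 to 2245, 2164 and 1692 (log2 fold change 2.65 ± 0.16). Erbb3, a receptor tyrosine kinase of the EGF receptor family, rose from 1316, 1243 and 1419.7 to 3870.4, 3462 and 3467, within a narrow range in each group. Crebrf, a nutrient-responsive regulator of CREB3, rose from 297, 272 and 223 to 849, 946 and 1029. The set also held Ipmk, an inositol phosphate kinase, Hykk, hydroxylysine kinase, Tcp11l2 and N4bp2l1, with log2 fold changes of 1.32 ± 0.09, 1.45 ± 0.11, 1.84 ± 0.13 and 2.16 ± 0.16. Ppp1r3g, a subunit that directs protein phosphatase 1 to glycogen, was nearly silent in untreated livers, with 0, 0 and 2 reads, and had 857 reads over the treated livers. Scaled to depth, that is a ratio of 557 with an exact 95% interval of 154 to 4607, which covers counting error only. Healthy livers held 17.9 ± 14.1 normalized counts of Ppp1r3g, below every treated liver.

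Among the falls, Npas2, a partner of BMAL1 in the clock, went from 214, 121 and 167 to 40, 17.3 and 32.3 (log2 fold change −2.47 ± 0.30, adjusted p = 0.000275). Epha2, an ephrin receptor induced by RAS signaling, fell from 1464, 1629.7 and 1276 to 609, 573 and 763, and Ccnd1, cyclin D1, from 6277, 6991 and 5788 to 3702, 2889 and 3001. Treated livers lay below the healthy mean of 5098 ± 514 for Ccnd1. Pfkp, the platelet-type phosphofructokinase, fell from 723, 857 and 695 to 363, 309 and 396, and Gfpt1, which opens the hexosamine pathway, from 2016, 1913 and 1944 to 1129.6, 1099.9 and 1253. Dtx4, Ubqln2, Septin9, the cadherin Fat1 and the tight junction gene Tjp3 completed the set, with log2 fold changes between −1.09 and −0.74.

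**Figure D2:**
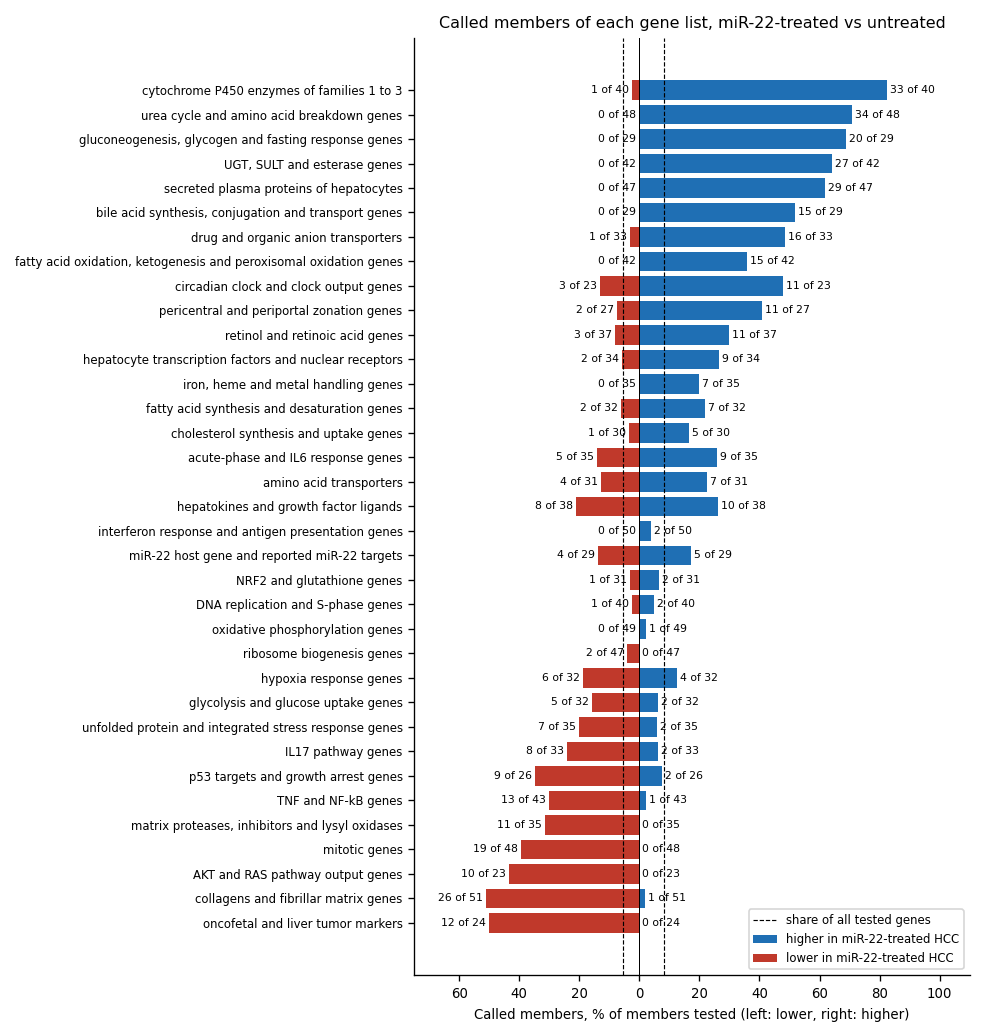
Share of tested members of each gene list that were called higher (blue, to the right) or lower (red, to the left) in miR-22-treated HCC, with the count beside each bar. Dashed lines mark the shares over all genes tested, 8.32% higher and 5.47% lower. The cytochrome P450 list reached 33 of 40 higher and the list of oncofetal and tumor markers 12 of 24 lower.

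Genes of mature hepatocytes were higher in treated livers. Of 47 tested genes for secreted plasma proteins, 29 rose and none fell (29 and 0 without treated replicate 2), with a median log2 fold change of 0.74. Igf1, the endocrine growth factor of liver, rose from 6357, 5419 and 7523 to 16692, 19264 and 13120.0 (log2 fold change 1.35 ± 0.16, adjusted p = 0.000216), and its carrier subunit gene Igfals from 534, 763 and 865 to 2566, 2152 and 1369. Serpina6, which encodes the corticosteroid-binding globulin, went from 1322, 1855 and 2453 to 6487, 7555 and 5522, and Mbl2, mannose-binding lectin, from 5161, 4225 and 5992 to 11264, 11694 and 10572. The treated values of Igf1 and Mbl2 were all below the healthy means of 24534 ± 1401 and 15079 ± 341. Serpina1c, an alpha-1-antitrypsin gene, rose from 1103, 813 and 1654 to 4401, 6733 and 4228, although reads of this gene family can be split between near-identical copies. Of the 10 hepatocyte markers, 6 rose and none fell (6 and 0 without treated replicate 2), and their summed level was 1127209 to 1418884 in untreated and 1690353 to 2088421 in treated livers. Ass1, argininosuccinate synthetase, was among them, with 13966, 9291 and 15607 against 29436, 34989 and 20063. Alb itself was not called, with a log2 fold change of 0.55. In whole-liver RNA a larger share of hepatocytes and more RNA per hepatocyte cannot be told apart. For female mice of this model, the study reports a lower liver-to-body weight ratio after miR-22. How far a smaller share of tumor tissue enters this and the other gene lists was not tested.

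Of the 34 tested hepatocyte transcription factors and nuclear receptors, 9 rose and 2 fell (7 and 1 without treated replicate 2). Besides Esr1 and Ppara, the rises included Nr1i3, the xenobiotic receptor CAR, from 231, 310.1 and 572 to 1056, 1079 and 1228 (log2 fold change 1.59 ± 0.24, adjusted p = 0.000871), and Cebpb, a factor of the fasting and acute-phase programs, from 1595, 1376 and 1325 to 2354, 3803 and 2854. Gata6, an endoderm factor, was among the falls, at −0.88. The core identity genes Hnf4a and Foxa2 were not called, with log2 fold changes of 0.30 and −0.16.

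Amino acid breakdown, the route by which liver turns surplus nitrogen into urea, had the most higher members of any list. Of 48 tested genes, 34 rose and none fell (32 and 0 without treated replicate 2), and the median log2 fold change was 0.84. Asl, argininosuccinate lyase, rose from 2943, 2399 and 3147 to 7686, 9509 and 6259.9 (log2 fold change 1.47 ± 0.15, adjusted p = 0.00011), and Arg1, the arginase that releases urea, from 8283, 6654 and 9257 to 17795, 20120.0 and 14475. Ahcy, which clears S-adenosylhomocysteine in the methionine cycle, went from 2318, 1983 and 2727 to 6659, 8466 and 6191. In tryptophan breakdown, Ido2 rose from 205, 250.2 and 368 to 1281, 1414 and 801 and Afmid, kynurenine formamidase, from 220.0, 215 and 331 to 927, 850.0 and 632. Treated replicate 4 was the lowest of the treated livers in all 5 of these genes, and yet above every untreated liver. Amino acid transporters were divided, with 7 of 31 higher and 4 lower (7 and 4 without treated replicate 2). The hepatic carriers Slc7a2, for cationic amino acids, and Slc38a4, of system A, rose from 2716, 3104 and 2821 to 9705, 15029 and 8455 and from 7049, 6565 and 7992 to 18691, 24482 and 14545. Slc38a2, another system A carrier, had a log2 fold change of 1.16 ± 0.18, while the 4 that fell were Slc7a6, Slc1a4, Slc43a2 and Slc6a8.

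Drug metabolism genes were higher in treated livers, and P450 genes had the largest called share of the 35 lists. Of 40 tested cytochrome P450 genes of families 1 to 3, 33 rose and 1 fell (30 and 1 without treated replicate 2), with a median log2 fold change of 1.10. Cyp3a13 rose from 405, 332 and 447 to 1049, 1399 and 1315 (log2 fold change 1.67 ± 0.14, adjusted p = 2.02e-05), past its healthy mean of 1023 ± 114. Cyp2b10, the classical target of CAR, rose from 38.2, 15.6 and 40.6 to 153, 434 and 243 and Cyp2e1, an abundant pericentral enzyme, from 15451, 15726 and 36137 to 62565, 70782 and 52166. Cyp3a25 and Cyp2c23, an epoxygenase gene of arachidonic acid, had log2 fold changes of 1.20 ± 0.18 and 1.05 ± 0.16. The fall was that of Cyp1b1, from 1420.2, 2041 and 1074 to 771, 523 and 699.5, an enzyme expressed mainly outside hepatocytes. Conjugating enzymes and esterases followed, with 27 of 42 higher and none lower (24 and 0 without treated replicate 2, median 1.12), among them Ugt2b37, from 202, 214 and 237 to 517, 565 and 468, and Ces3b, from 265, 276 and 688 to 4827, 4642 and 2367. The esterase gene Ces1b and the sulfotransferase gene Sult5a1 had log2 fold changes of 1.26 ± 0.15 and 2.92 ± 0.34. In the list of drug and organic anion transporters 16 of 33 rose and 1 fell (14 and 1 without treated replicate 2, 3 fell without replicate 4 of either group and none without untreated replicate 3), for example Slc17a2, from 1331, 1588 and 2322 to 5199.8, 4469 and 4575, the cation exporter gene Slc47a1, from 911, 791 and 1189 to 2423, 2414 and 1803, and Slc22a26, from 305, 567 and 793 to 3718, 2502 and 1729. Many Cyp2c, Cyp3a, Ugt and Ces genes are close paralogs, so the split of reads between single members is uncertain.

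Bile acid genes rose as well, with 15 of 29 higher and none lower (13 and 0 without treated replicate 2, median 0.60). Cyp7b1 and Cyp27a1, enzymes of the alternative synthesis route, rose from 220.0, 242 and 254 to 646, 935 and 467 and from 2202, 1820.0 and 2782 to 4734, 5663 and 4074. Akr1d1, a steroid reductase gene shared by both routes, rose from 1920.2, 1822 and 2418 to 5030.0, 4669 and 3319.6. Slc10a1, the sodium-dependent importer NTCP, went from 1250.1, 1549 and 2669 to 7195, 7491 and 4432 (log2 fold change 1.80 ± 0.26, adjusted p = 0.000672). Cyp7a1, the rate-limiting enzyme of the classical route, had 610.1, 1499 and 1502 against 4233, 3538 and 1427, with treated replicate 4 inside the untreated range, and its call was lost without treated replicate 2 (adjusted p = 0.102), treated replicate 3 (0.0881), untreated replicate 2 (0.0926) or untreated replicate 3 (0.0503). The list of cholesterol genes had 5 of 30 higher and 1 lower, 3 and 1 without treated replicate 2 and 11 and 0 without treated replicate 4. The fall, that of the mevalonate pathway gene Mvd, was called only in the full comparison and without treated replicate 2 (adjusted p of 0.0822 to 0.164 in the other 5 fits). The sterol exporters Abcg5 and Abcg8 rose from 877, 656 and 1034 to 1632, 2075 and 1568 and from 284, 248 and 612 to 1236, 1474 and 1208, and Lcat, which esterifies plasma cholesterol, from 2340.2, 2199.6 and 3243 to 5549, 5547 and 4257. Tm7sf2, a sterol reductase gene, rose from 756, 861 and 931 to 1646, 1323 and 1162 but fell short of the fold threshold without treated replicate 2 (0.54).

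Retinol is stored in liver as esters and oxidized to retinoic acid, which acts on nuclear receptors. Of 37 tested retinoid genes, 11 rose and 3 fell (10 and 2 without treated replicate 2), and 6 rose without untreated replicate 3. Adh7, an alcohol dehydrogenase that oxidizes retinol, rose from 189, 216 and 249 to 656, 662 and 586 (log2 fold change 1.54 ± 0.18, adjusted p = 0.000224). Rdh7 and Rdh16f2, both retinol dehydrogenase genes, rose from 8695, 7595 and 11967 to 16270.0, 17882 and 14900.0 and from 347, 724 and 1036 to 2651, 2215 and 1437. Dhrs3, which returns retinal to retinol, stood higher in each treated liver at under 1.5-fold (log2 fold change 0.47 ± 0.09). The members that fell were Aldh1a2, a retinaldehyde dehydrogenase that makes retinoic acid, at −1.20, Dhrs9 at −1.46 and the receptor gene Rarg at −0.66. Dhrs9 was not called without untreated replicate 2 (adjusted p = 0.0646), nor Rarg without treated replicate 2 (0.0937), treated replicate 3 (0.109) or untreated replicate 3 (0.127). The receptor genes Rara and Rarb and the retinoic acid hydroxylase gene Cyp26a1 were not called, at −0.49, 0.08 and 0.45.

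Fatty acid oxidation genes rose in part, with 15 of 42 higher and none lower (19 and 0 without treated replicate 2, median 0.52). The count ranged from 9 without untreated replicate 3 to 24 without untreated replicate 4. Slc27a2 and Slc27a5, which activate very long chain fatty acids and bile acids, rose from 9116, 8399.7 and 12866 to 18432, 22514 and 18775 and from 3699, 3539 and 5827 to 11030.0, 12355 and 7748. Acot12 and Acot4, acyl-CoA thioesterase genes, had log2 fold changes of 0.84 ± 0.13 and 0.94 ± 0.15. Cpt1a, the entry step into mitochondria, was not called (0.21). In the list of fatty acid synthesis, 7 of 32 rose and 2 fell (6 and 2 without treated replicate 2). Thrsp, a lipogenic regulator, rose from 2154, 1964 and 2631 to 10787, 17809 and 10608 and the phosphatidate phosphatase gene Lpin2 from 2418, 1899.9 and 1842 to 6003, 11821 and 9291. Scd2, a desaturase gene that is scarce in healthy adult liver (204 ± 52), fell from 10789, 13512 and 9876 to 5512, 4463 and 5269 (log2 fold change −1.16 ± 0.16, adjusted p = 0.000608). The synthesis enzymes Fasn, Acly and Scd1 were not called, at 0.34, 0.22 and −0.10.

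Genes of gluconeogenesis, glycogen and the fasting response were higher in treated livers. Some of them raise glucose output and are held down by insulin and AKT through FOXO1, and the part of AKT in these rises was not tested. Of 29 tested members, 20 rose and none fell (19 and 0 without treated replicate 2), with a median log2 fold change of 0.80. Pck1, the cytosolic PEP carboxykinase that commits carbon to glucose, rose from 5712, 6016 and 9859.8 to 41777, 61132 and 40892 (log2 fold change 2.74 ± 0.22, adjusted p = 2.02e-05). G6pc, glucose-6-phosphatase, went from 631, 773 and 1663 to 6319, 8586 and 5761. In treated livers G6pc lay above each healthy liver, whose mean was 4503 ± 1150.0, while Pck1 lay around its healthy mean of 43682 ± 1530.1. Tsc22d3, a glucocorticoid-induced gene, rose from 818, 689 and 767 to 3212, 4251 and 2089, and Sds, serine dehydratase, from 499, 627 and 1017 to 3161, 4781 and 2101. Angptl4, a secreted inhibitor of lipoprotein lipase, rose from 646, 638 and 736 to 1537, 3933 and 3791, also past its healthy mean of 1089 ± 172. Lpin1 reached 3318, 14097 and 5359 from 1056, 1110.2 and 1136, with replicate 3 the highest. Irs2, Igfbp1 and Ppargc1a had log2 fold changes of 1.75, 1.60 and 1.20, whereas Fgf21 and Pdk4 were not called (−0.0090 and 0.54). The feeding state and the hour of collection are not given in the sources used here.

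**Figure D3:**
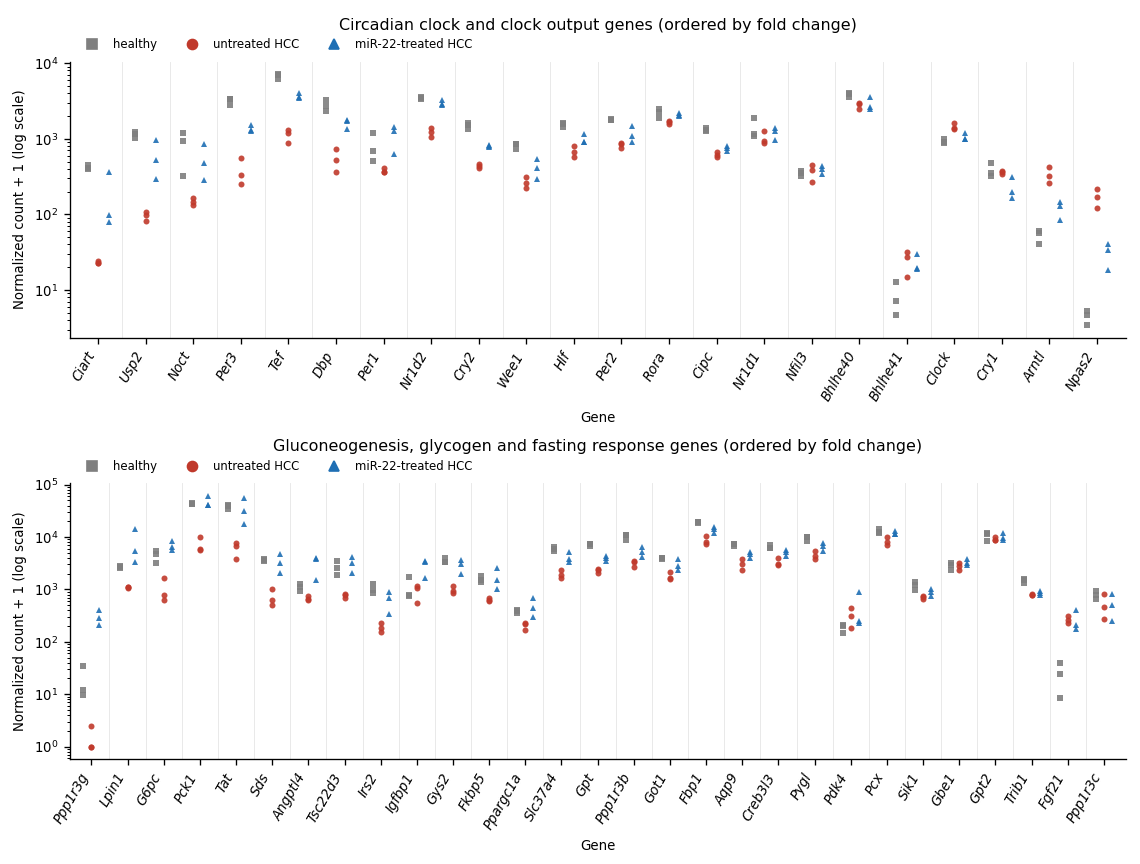
Normalized counts plus 1 (log axis) of 22 of the 23 tested clock genes (upper panel) and every tested fasting gene (lower panel), ordered by log2 fold change. Each point is 1 liver. Ciart and Usp2 stand at the higher end of the clock panel and Npas2 and Arntl at the lower end, and treated Ppp1r3g, G6pc and Angptl4 lie above the healthy livers.

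The circadian clock pairs activators that bind E-box sequences, BMAL1 (Arntl) with CLOCK or NPAS2, against the repressors PER, CRY and REV-ERB, which they induce. Of 23 tested clock genes, 11 rose and 3 fell (13 and 2 without treated replicate 2). On the activator side, Arntl fell from 418, 258 and 322 to 129, 82.9 and 145 (log2 fold change −1.48 ± 0.23, adjusted p = 0.000996) beside the fall of Npas2, while Clock was not called (−0.46). On the repressor side, Nr1d2, REV-ERB beta, rose from 1039, 1398 and 1213 to 2756, 3224 and 2882 and Per3 from 255, 559 and 331 to 1521, 1304 and 1249. Cry2 rose from 414, 429 and 456 to 792, 831 and 775. Cry1 went the other way, from 376, 362 and 336 to 199, 165 and 315, a call lost without treated replicate 2 (adjusted p = 0.125), treated replicate 3 (0.164) or any of the untreated livers (0.0575 to 0.114). Tef, a PAR bZIP activator among the output genes, rose from 876, 1315 and 1181 to 3513, 4075 and 3472 (log2 fold change 1.71 ± 0.14, adjusted p = 2.02e-05), and its relative Dbp, from 361, 720.2 and 524 to 1692, 1780.4 and 1334. Ciart, a repressor of CLOCK and BMAL1, went from 21.8, 23.5 and 21.7 to 97.7, 363 and 77.5, with treated replicate 3 far above the other two, and Usp2 from 97.3, 107 and 79.7 to 289, 954 and 519.6 with the same liver highest. Nr1d1 and Per2 were not called, at 0.22 and 0.50.

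Of the 23 clock genes, 19 have a promoter in the RefSeq table on GRCm38.p6, which spans 250 bases before to 50 bases after the start, and 6 of them hold the E-box CACGTG, a motif that reads the same on both strands. Among all 32851 promoters of the table, 7.15% hold it. That share is per promoter, while the 6 of 19 are genes with the motif in any of their promoters, so the shares differ in unit. Windows of 30 bases, on the strand of the gene with the E-box in capitals, are shown for 3 members that rose and for Cry1, which fell in the full comparison, with the exceptions given above.
Ciart, chr3:95882327-95882356, minus strand: tgcatctagagtCACGTGttgccggtaagc
Per1, chr11:69098771-69098800, plus strand: agcacccaagtcCACGTGcagggatgtgtg
Tef, chr15:81802534-81802563, plus strand: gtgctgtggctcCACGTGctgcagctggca
Cry1, chr10:85185097-85185126, minus strand: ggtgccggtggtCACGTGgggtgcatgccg
The promoter of Ciart holds 3 copies, 1 of them shown, and the promoters shown for the others hold 1. Per1 rose from 363, 411 and 362 to 629, 1425 and 1275. The 2 other holders, Cipc and Bhlhe41, were not called (0.25 and −0.10). The motif was found in members that rose, in members that were not called and in Cry1.

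Zonation genes, which distinguish hepatocytes near the portal and the central vein, gave 11 of 27 higher and 2 lower (10 and 2 without treated replicate 2, and 1 lower without replicate 3 of either group). Periportal Gls2, a liver glutaminase gene, rose from 1335, 1299.6 and 1827 to 4351, 4386 and 2653, and pericentral Slc1a2, a glutamate transporter gene, from 432, 522 and 775 to 1713, 1813 and 1163. The Wnt targets Axin2, Lgr5 and Tbx3 were not called, at −0.41, −0.17 and −0.27, and Glul, the pericentral glutamine synthetase gene, stood at 0.57. Iron and metal genes had 7 of 35 higher and none lower (6 and 1 without treated replicate 2). Hamp, which encodes the iron hormone hepcidin, rose from 4274, 2963 and 7446 to 11984, 14336 and 10778 (log2 fold change 1.34 ± 0.26, adjusted p = 0.0035), and its near copy Hamp2 from 0, 3.47 and 13.8 to 64.4, 42.1 and 37.8, both still below healthy livers (32355 ± 4068 and 1036 ± 302). Mt2, a metallothionein gene, rose from 290.0, 565 and 416 to 1571, 2655 and 888, above the healthy 221 ± 81.8. Tfr2, an iron-sensing receptor gene, was called at 0.64 but not without untreated replicate 2 (0.58) or untreated replicate 3 (0.56). Of 49 tested oxidative phosphorylation genes 1, mt-Co1, was called (0.61), and the log2 fold changes of all 49 were above 0, with a median of 0.33. The members with the smallest p, Sdhd, Ndufv2, Uqcrc2 and mt-Nd2, had log2 fold changes of 0.48 ± 0.10, 0.42 ± 0.09, 0.45 ± 0.11 and 0.56 ± 0.14. The count of called members was 0 without untreated replicate 2, untreated replicate 3 or treated replicate 3, 2 without treated replicate 2 (where mt-Co1 had an adjusted p of 0.0669), and 6 without replicate 4 of either group.

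Output genes of growth signaling and tumor marker genes were lower in part. Of 23 tested genes downstream of AKT and RAS, 10 fell and none rose (7 and 0 without treated replicate 2), with a median log2 fold change of −0.67. Dusp4, a phosphatase gene that ERK induces as its own brake, fell from 626, 732 and 404 to 252, 176 and 243 (log2 fold change −1.39 ± 0.21, adjusted p = 0.000896), and Ier3, an immediate early gene, from 213, 332 and 156 to 66.6, 44.5 and 74.8. The ERK-induced factor gene Etv5 and the cytokine gene Lif fell by 0.84 and 1.32 on the log2 scale, while Dusp6, Egr1 and Spry4 were not called (−0.55, −0.06 and 0.27). Of 24 tested oncofetal and tumor markers, 12 fell and none rose (10 and 0 without treated replicate 2, and 7 without untreated replicate 2). Sox9, a progenitor and duct factor, fell from 1597, 2175 and 1295 to 462, 501 and 740.1 (log2 fold change −1.57 ± 0.24, adjusted p = 0.000885), and Cd24a, a surface glycoprotein of progenitor cells, from 1877, 2053 and 1233 to 669, 682 and 1155. Golm1, a Golgi protein gene measured as a serum tumor marker, fell from 1553, 1596 and 1343 to 812, 826 and 1144. Treated replicate 4 was the highest treated liver in all 3 of these genes, closest to the untreated range. H19, Igf2 and Krt19 were not called, at −0.21, 0.32 and −0.01.

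**Figure D4:**
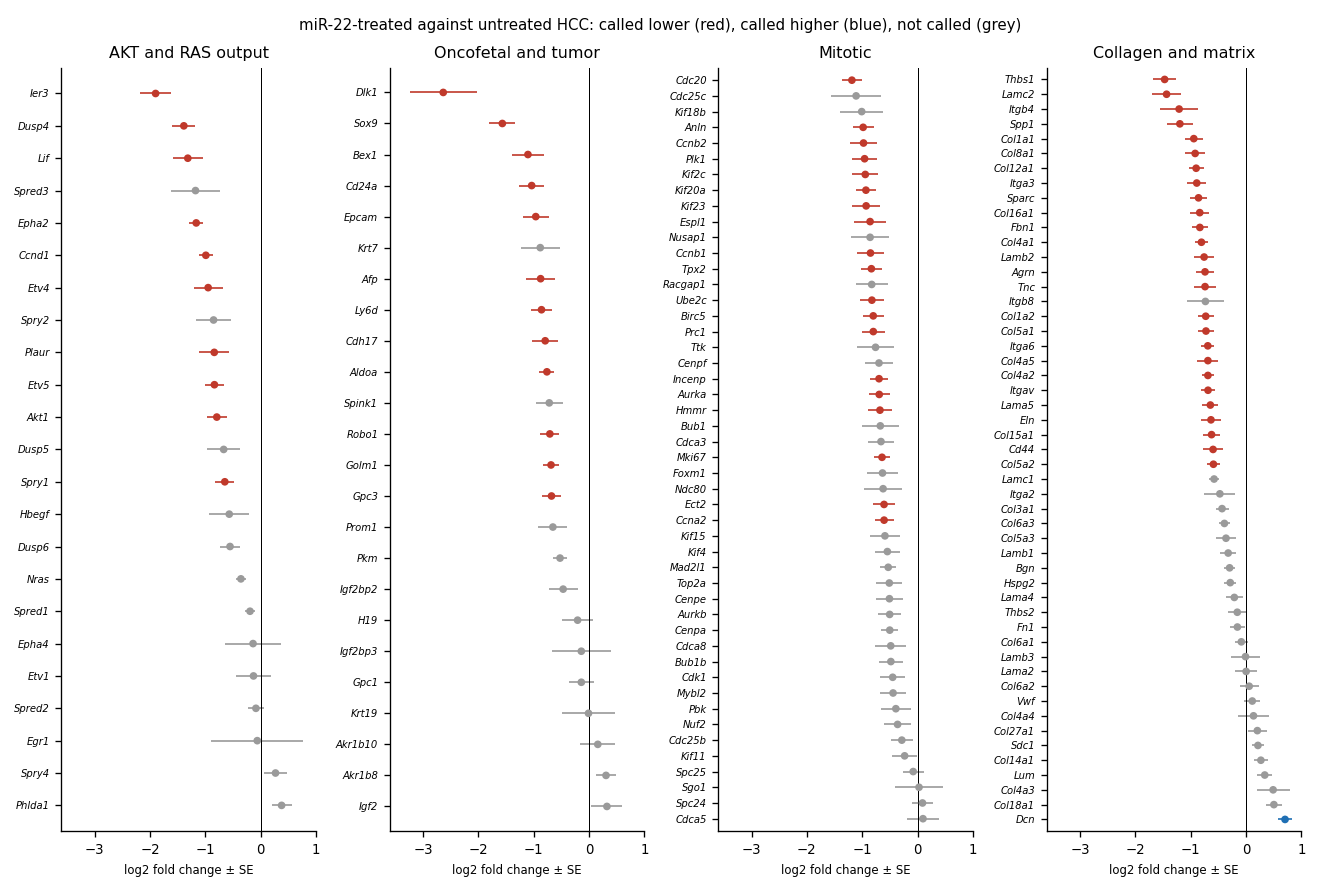
Log2 fold change of miR-22-treated against untreated HCC (point) with its standard error (line) for every tested member of 4 gene lists, 3 livers a group. Red members were called lower, blue higher and grey not called. All called members of the first 3 lists lie below 0, and Dcn is the called rise of the matrix list, a call that needs untreated replicate 3 (0.56 without it).

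Of 48 tested mitotic genes, 19 fell and none rose (14 and 0 without treated replicate 2), with a median of −0.65. The count fell to 8 without untreated replicate 2 and to 7 without untreated replicate 3 or treated replicate 3. Cdc20, which activates the anaphase-promoting complex, fell from 449, 402 and 320.3 to 181, 134 and 198 (log2 fold change −1.19 ± 0.18, adjusted p = 0.000894), and the kinesin gene Kif20a from 342, 294 and 271 to 171, 116 and 186. Anln and Tpx2, genes of cytokinesis and the spindle, had log2 fold changes of −0.98 ± 0.19 and −0.83 ± 0.19, and Mki67, which encodes the proliferation marker Ki67, −0.64, under the fold threshold without untreated replicate 3 (−0.55) or treated replicate 3 (−0.49). Cdc20 stayed above its healthy level in each treated liver, with a healthy mean of 18.1 ± 4.15. Of 40 tested replication genes, 2 rose and 1 fell (3 and 2 without treated replicate 2), and the lower count reached 4 without treated replicate 4. The rises were Mcm10, a replication initiation factor, from 177, 195 and 198 to 918, 986 and 585, and the thymidine kinase gene Tk1, from 268, 318 and 315 to 708, 735 and 586, and the fall was E2f2, from 248, 224 and 213 to 119, 96.5 and 135. Mcm2 to Mcm7 had log2 fold changes between −0.21 and 0.12. Tyms, thymidylate synthase, stood lower in each treated liver at under 1.5-fold (−0.56 ± 0.15). Among p53 targets and growth arrest genes, 2 of 26 rose and 9 fell (1 and 7 without treated replicate 2). Plk2 and Zmat3, both p53 targets, fell from 1826, 1928 and 1349 to 909, 796 and 1107 and from 765, 897 and 657 to 403, 457 and 541, Aen fell at −0.64 but not without treated replicate 3 (−0.56), and Plk3, a stress kinase gene, rose from 808, 691 and 708 to 1358, 1663 and 2163. Cdkn1a, the inhibitor p21, fell from 2226, 2055 and 1597 to 694, 1054 and 1340.0. The other rise, Gadd45g, had 310.0, 177 and 133 against 1526, 252 and 444, where treated replicate 2 set the height, and was not called without it (adjusted p = 0.248), nor without untreated replicate 3 (0.121) or untreated replicate 4 (0.101).

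Among biosynthesis and stress lists, ribosome biogenesis had 0 of 47 higher and 2 lower (0 and 1 without treated replicate 2, 0 and 5 without treated replicate 4), namely Rrp12, from 345, 339.7 and 375 to 182, 182 and 227, and Nop58, whose −0.59 dropped under the fold threshold without treated replicate 2 (−0.55), treated replicate 3 (−0.56) or untreated replicate 2 (−0.54). Polr1a, a subunit of RNA polymerase I, and the helicase gene Ddx21 stood lower in each treated liver at under 1.5-fold (−0.49 ± 0.10 and −0.47 ± 0.10). Unfolded protein and integrated stress genes had 2 of 35 higher and 7 lower (2 and 6 without treated replicate 2). Herpud1, of ER-associated degradation, and Chac1, a glutathione-degrading enzyme gene, rose, with log2 fold changes of 1.14 ± 0.21 and 1.48 ± 0.28, and Dnajb9, an ER chaperone gene, and Atf3, a stress factor, fell, with −0.83 ± 0.15 and −1.24 ± 0.24. Phgdh and Psat1, ATF4 targets and enzymes of serine synthesis, fell by 1.02 and 0.97 on the log2 scale. In the NRF2 and glutathione list 2 of 31 rose, Gsta3 and Gpx1, and 1 fell (2 and 0 without treated replicate 2), and the falls ranged up to 5, without treated replicate 4. The fall was Srxn1 at −0.59, a call that did not hold without treated replicate 2 (−0.58), treated replicate 3 (−0.57) or untreated replicate 2 (−0.42). Gstt1, a glutathione transferase gene, stood at 0.41 ± 0.09, under the fold threshold. Glycolysis genes gave 2 of 32 higher and 5 lower (4 and 4 without treated replicate 2). Aldoa, the muscle-type aldolase gene, fell from 4137, 4263 and 3439.5 to 2083, 2089.7 and 2803 and Pfkfb4, a regulator of phosphofructokinase, from 417, 633 and 333 to 196, 157 and 219, whereas Pdk1, which restrains pyruvate oxidation, rose from 579, 653 and 726 to 1224, 1288 and 904. Pkm, Ldha and Pgk1 were not called (−0.53, −0.10 and −0.00). The hypoxia list had 4 of 32 higher and 6 lower (4 and 7 without treated replicate 2). Its members did not move as a block: Bnip3, a mitophagy gene, rose from 1429, 1435 and 1548 to 2855, 4084 and 3189 and Angptl4 and Pdk1 rose as above, while Egln3, an oxygen sensor gene, fell from 416, 405 and 337 to 244, 194 and 214.

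Matrix genes were lower. Of 51 tested genes for collagens, laminins, integrins and other matrix proteins, 26 fell and 1 rose (22 and 1 without treated replicate 2), with a median log2 fold change of −0.60. The count of falls was 17 without untreated replicate 3 and 16 without treated replicate 3. Thbs1, the matricellular protein that activates TGF-beta, fell from 1174, 1206 and 685 to 394, 283 and 424 (log2 fold change −1.47 ± 0.20, adjusted p = 0.000595). The basement membrane gene Col4a1 went from 7982, 8347 and 7536 to 4692, 3774 and 5185 and the fibrillar gene Col1a1 from 3858, 4145 and 3198 to 2096, 1423 and 2297, both far above the healthy 909 ± 17.7 and 112 ± 15.8. Col12a1, a fibril-associated collagen gene, fell from 476, 399 and 365 to 215, 195 and 250.1, and Lamc1, a laminin chain gene, stood lower at just under 1.5-fold (−0.58 ± 0.08). Dcn, decorin, a proteoglycan of stellate cells and fibroblasts, was the rise, from 2133, 1538 and 2131 to 3147, 3535 and 2784, and it fell short of the fold threshold without untreated replicate 3 (0.56). Of 35 tested matrix proteases, inhibitors and lysyl oxidases, 11 fell and none rose (12 and 0 without treated replicate 2), among them Mmp14, a membrane-bound collagenase, from 2962, 2862 and 2692 to 1902, 1330.0 and 1478, Adamts1, from 1731, 2195 and 1376 to 740.1, 739 and 1014, Timp1, from 160.0, 185 and 126 to 47.7, 59.4 and 87.7, and Loxl2, from 525, 440.4 and 465 to 272, 231 and 341. Among 16 tested markers of stellate cells and myofibroblasts, 2 rose (Dcn and Lrat) and 2 fell (Col1a1 and Col1a2), with 1 and 3 without treated replicate 2. The rises and falls numbered 0 and 3 without untreated replicate 3, 1 and 3 without untreated replicate 4, 1 and 1 without treated replicate 3, and 3 and 4 without treated replicate 4. Lrat, which esterifies retinol, rose by 1.10 but was not called without either of treated replicates 2 and 3 or either of untreated replicates 3 and 4 (adjusted p of 0.0736 to 0.106), and Col1a2 missed the fold threshold without treated replicate 3 (−0.57). Acta2, the smooth muscle actin of myofibroblasts, was not called (−0.57).

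Duct markers fell, with 5 of 9 tested members lower and none higher (4 and 0 without treated replicate 2), and their summed level was 68669 to 127071 in untreated and 33116 to 56531 in treated livers. Spp1, osteopontin, makes up most of that sum and fell from 88189, 117898 and 62830.0 to 36523, 29628 and 51255 (log2 fold change −1.20 ± 0.24, adjusted p = 0.00414). Cftr, the chloride channel of duct cells, fell from 568, 913 and 319.6 to 131, 110.1 and 272, whereas the duct keratin gene Krt19 was not called. Sox9 and Spp1 also belong to the tumor and matrix lists above, and the part of duct-like cells in those counts was not tested.

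Inflammatory genes were lower in part. Of 43 tested TNF and NF-κB genes, 13 fell and 1, the receptor gene Tnfrsf1b, rose (11 and 1 without treated replicate 2). Tnfrsf1b stood at 0.63 and missed the fold threshold without treated replicate 3 (0.40). Bcl3 and Nfkb2, components of NF-κB, fell from 1309, 1359.5 and 1115 to 807, 537 and 688 and from 856, 956 and 701 to 532, 409.5 and 556 (log2 fold changes −0.89 ± 0.14 and −0.74 ± 0.14). Icam1, a leukocyte adhesion molecule, fell from 1273, 1525 and 1135 to 822, 614 and 805, and Tnfrsf12a, the TWEAK receptor gene, from 2341, 2277 and 1785 to 939, 885 and 1394. Tnf itself was not called (−1.28). Of 33 tested IL17 pathway genes, 2 rose and 8 fell (2 and 4 without treated replicate 2), and the falls numbered 3 without untreated replicate 2 or 3 and 2 without treated replicate 3. Cebpb, given above as a hepatocyte gene, was among the rises. Cxcl3, a neutrophil chemokine, fell from 133, 99.9 and 97.8 to 46.6, 21 and 41.5 and Fosb, an AP-1 subunit, from 12.7, 20 and 18.1 to 4.44, 4.95 and 3.69. The cytokine gene Il17a had 0 reads in all 9 libraries and Il17f 1 read in all, so a difference in them was not detectable at this depth. Acute-phase and IL6 response genes had 9 of 35 higher and 5 lower (10 and 4 without treated replicate 2). Il6ra, the IL6 receptor gene, rose from 417, 465 and 643 to 949, 2217 and 1186, Saa4, a constitutive amyloid A, from 2158, 2114 and 2959.8 to 5585, 6747 and 4246, and Serpina3m from 726, 771 and 1232 to 2210.4, 2197 and 1752, while Socs3, the feedback inhibitor of STAT3, and the endotoxin co-receptor gene Cd14 fell by 0.96 and 0.95 on the log2 scale. The falls of this list numbered 3 without untreated replicate 3. Crp stood higher in each treated liver at just under 1.5-fold (0.58 ± 0.09). Interferon and antigen presentation genes had 2 of 50 higher and none lower (3 and 0 without treated replicate 2, 4 and 0 without treated replicate 4), with a median of −0.03. The rises were the GTPase genes Gbp7, from 397, 431 and 426 to 829, 713 and 578, and Iigp1, from 4848, 4425 and 5979 to 9659, 10765 and 7902. The class I gene H2-Q4 and the immunoproteasome gene Psmb10 stood at −0.42 ± 0.11 and 0.30 ± 0.09, under the fold threshold.

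Of 38 tested hepatokines and growth factor ligands, 10 were higher and 8 lower (10 and 7 without treated replicate 2). Egfr, the receptor on hepatocytes, rose from 2127, 2139 and 2851 to 6516, 10246 and 7169.8 (log2 fold change 1.75 ± 0.20, adjusted p = 0.000216), past the healthy mean of 4517 ± 1132, while its ligand gene Tgfa fell by 0.75 on the log2 scale. The growth hormone receptor gene Ghr rose at 1.10 beside Igf1 and Igfals. The falls included the activin genes Inhba and Inhbb, at −0.90 and −1.44, the YAP target Ccn1 at −0.97 and the growth factor genes Pdgfb and Bmp7 at −0.95 and −1.29.

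None of the 17 tested macrophage and Kupffer cell markers, 9 B cell markers or 6 neutrophil markers was called by edgeR, with or without treated replicate 2, and 5, 1 and 0 of them had an unadjusted p under 0.05. DESeq2 called 1 macrophage marker and none of the others. In edgeR, 3 macrophage markers rose and 1 fell without replicate 4 of either group. Clec4f and Vsig4, markers of resident Kupffer cells, stood at 0.41 ± 0.12 and 0.51 ± 0.15, and Cd9 at −0.56 ± 0.12, all under the fold threshold. The neutrophil genes S100a8 and S100a9 had 45.5, 59.1 and 36.2 against 72.1, 37.1 and 51.7 and 130.0, 129 and 94.2 against 128, 85.4 and 77.5, and the groups overlapped in both, as for Ltf, lactoferrin (11.8, 14.8 and 2.17 against 16.6, 2.47 and 15.7). Among B cell markers, Pax5 and Sdc1 (syndecan-1, which hepatocytes also express) overlapped between the groups (−0.69 ± 0.69 and 0.22 ± 0.11). Of 16 tested T and NK cell markers, 2 rose (1 without treated replicate 2): Zap70, a T cell receptor kinase gene, from 42.7, 26.1 and 42 to 111, 129 and 76.6 (adjusted p = 0.00135), and Nkg7, of cytotoxic granules, from 12.7, 13 and 9.42 to 34.4, 19.8 and 38.8, a call lost without treated replicate 2 (adjusted p = 0.0577) and, with adjusted p of 0.0512 to 0.0634, without any other HCC liver but treated replicate 3. Cd3d, Cd8a, Cd3e and Gzmb were not called, at 1.02, −0.25, −0.51 and 0.53. Of 16 tested endothelial markers, the sinusoidal genes Clec4g and Oit3 rose, Clec4g from 817, 659 and 996 to 1554, 1502 and 1401, Fcgr2b stood at 0.55 ± 0.12, under the fold threshold, and Oit3 lost its call without untreated replicate 3 (0.51) or treated replicate 3 (0.57). The count of endothelial rises was 2 without treated replicate 2 and 4 without replicate 4 of either group. Of 4 tested erythroid genes, none was called by edgeR, with or without treated replicate 2, or by DESeq2, and none had an unadjusted p under 0.05, and Hba-a1, Hbb-bs and Hbb-bt overlapped between the groups (−0.32 ± 0.16, −0.17 ± 0.15 and −0.28 ± 0.25).

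The acinar markers show what treated replicate 2 adds. Of the 38 markers, 29 had at least 10 reads in that library, against 5 in each of the other treated livers, 6 to 19 in untreated and 4 to 5 in healthy livers. Ctrb1, chymotrypsinogen, had 1588 reads in treated replicate 2 and 0 and 5 in the other treated livers. Pnlip, pancreatic lipase, had 1126 reads there and 1 in each of the other treated livers. Untreated replicate 4 held a trace of the same transcripts, with 89 reads of Ctrb1 and 46 of Pnlip, above the 8 and 9 reads of Ctrb1 in the other untreated livers. Acinar markers together were 0.0693% of the counts of treated replicate 2, 0.0179% in treated replicate 4, where Dmbt1 gave 2976 of 3663 reads, and at most 0.00807% elsewhere. No marker of pancreas islets passed the filter, and Ptf1a, the acinar factor gene, had 0 reads in every library.

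**Figure D5:**
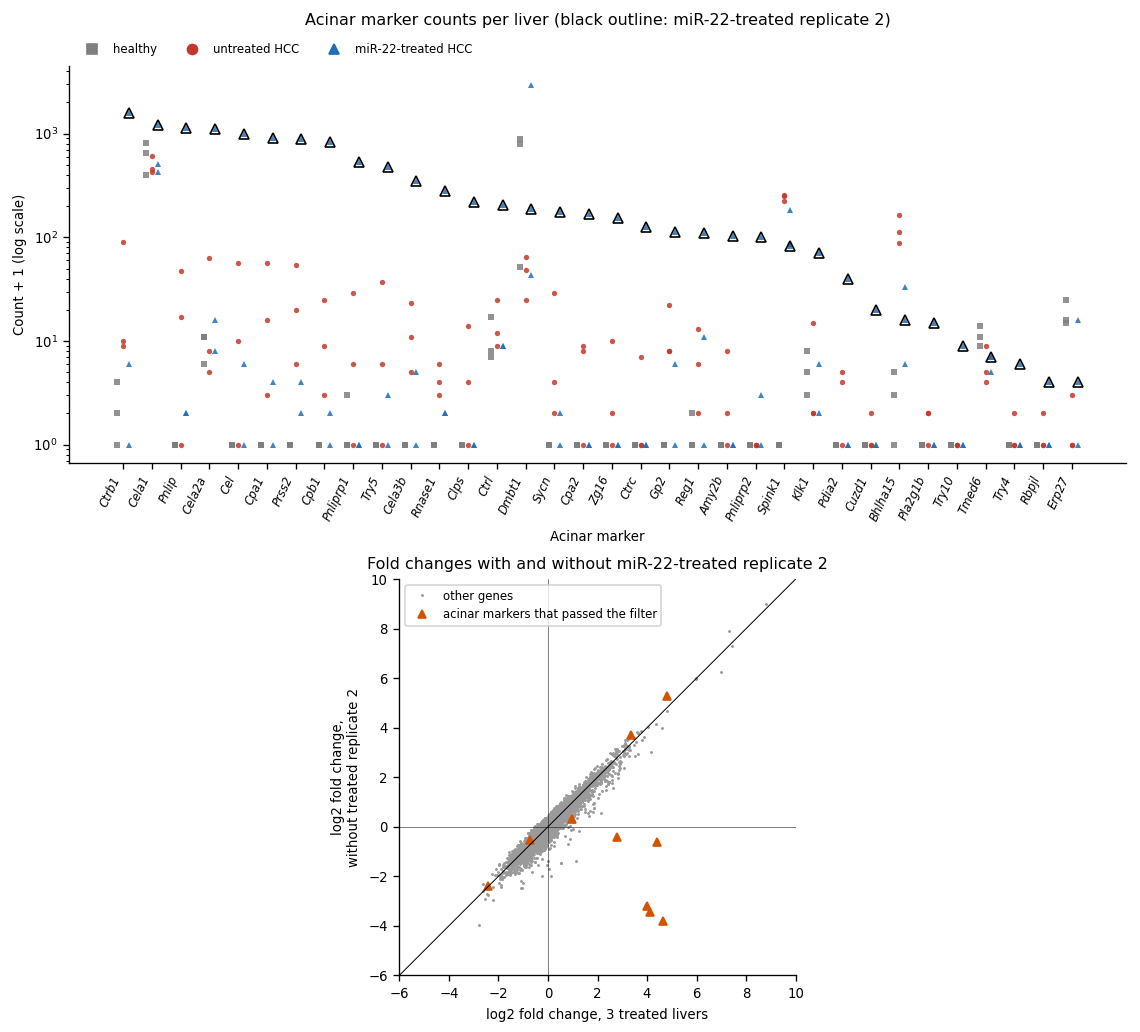
Upper panel: reads plus 1 (log axis) of each acinar marker with any read, by liver, with treated replicate 2 outlined in black, which lies above the other treated livers in most markers. Lower panel: log2 fold change of each tested gene with all 3 treated livers (horizontal) against that without treated replicate 2 (vertical), where 5 acinar markers turn from positive to negative and nearly all other genes stay near the diagonal.

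Of the 10 acinar markers that passed the filter, 2 were called higher, Cela2a and Dmbt1, and 1 lower, Bhlha15. The rises numbered 1 without treated replicate 2, 8 without treated replicate 3, 15 without treated replicate 4 (which also let more of these genes through the filter) and 0 without untreated replicate 2 or 3. Cela2a, a pancreatic elastase gene, had 6.36, 3.47 and 44.9 normalized counts in untreated and 1218, 18.6 and 6.46 in treated livers, so that 1 library carries the call (log2 fold change 4.41 ± 1.42, adjusted p = 0.0397). Without that library it stood at −0.63 (adjusted p = 0.687). Leaving out untreated replicate 2 (adjusted p = 0.13) or 3 (0.14) also ended its call. Prss2, Cpa1 and Pnlip turned from 4.00, 4.10 and 4.63 to −3.21, −3.45 and −3.79, none of them called in either fit, and Ctrl from 2.79 to −0.43. Dmbt1, a mucosal scavenger receptor gene that is also measured in healthy livers (696 ± 558), had 21.8, 40.8 and 45.7 against 209, 52 and 2746, and its call rests on treated replicate 4 (adjusted p = 0.187 without it), although it was also lost without untreated replicate 2 (0.0808) or 3 (0.0768). Bhlha15, the secretory cell factor MIST1, is on the acinar list yet moved apart from the enzymes, falling from 102, 75.6 and 117 to 16.6, 6.19 and 29.5 (log2 fold change −2.44 ± 0.44, adjusted p = 0.00236), and treated replicate 2 was not its highest treated liver. Spink1, a trypsin inhibitor gene that liver tumors also express, had 230.0, 195 and 179.7 against 89.9, 105 and 169.8, with no read in healthy livers. Cela1, an elastase gene also read in healthy livers (712 ± 199), had 414, 366 and 437 against 1356, 635 and 390.4, and Erp27, a disulfide isomerase gene, 0, 0 and 1.45 against 3.33, 18.6 and 0. With the acinar markers removed before normalization, 2165 genes were called, 1304 higher and 861 lower.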

How the data were processed

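Whole-liver RNA of 9 mouse livers (3 healthy, 3 untreated HCC, 3 miR-22-treated HCC) was sequenced from non-directional libraries, so reads of a gene and its antisense partner cannot be told apart. Per the submitters' notes and the study's methods, the authors checked reads with FastQC 0.11.7, quantified them with Salmon (version not given in the sources used here) on GRCm39 and summed transcripts to genes. The deposited whole-number counts were used as they stand. Salmon shares reads among near-identical genes by estimation, so values of close paralogs are uncertain. A second deposited table, normalized by the authors with DESeq2 1.18, was not used. 

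Genes were filtered with filterByExpr, scaled by TMM and tested with edgeR 4.0.16 (quasi-likelihood F test, R 4.3.3) in 1 fit of the 9 libraries with 3 groups, with the contrast of miR-22-treated against untreated HCC. A call needed a Benjamini-Hochberg adjusted p under 0.05 over all 15717 genes and a fold change over 1.5. All adjusted p-values in the text are from this test. Printed values are counts divided by the effective library size and multiplied by the mean of 19401057. Standard errors are the log2 fold change divided by the square root of F. The labels do not say whether the 3 livers of a group came from separate cages or litters, so p-values measure only the spread between them. Healthy livers were used as a reference level and shared the estimate of spread.

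On simulated counts for 15426 genes of this comparison, 97 of 100 genes changed 4-fold and 71 of 100 changed 2-fold were called, with 12 false calls. Alternatives were DESeq2 1.42.0 size factors and Wald test, upper-quartile factors, no filter or at least 10 counts in every library, the 6 HCC libraries alone, a replicate block, glmTreat, no fold threshold, removal of acinar markers, and leaving out each HCC liver.

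The comparison, the 35 gene lists and the 11 marker lists were chosen with earlier results of these data known. Of their 1324 symbols, 1316 matched by symbol, 5 by synonym and 3 not at all, and 1234 were tested. The leading genes are the 10 higher and 10 lower with the smallest p among calls that held in all 6 fits without 1 HCC liver and whose groups did not overlap. Predicted genes were left out of these. In each gene list up to 4 members, and in each marker list other than the acinar one up to 3, were named by smallest p, called or not, beside the checks Mir22hg, Hif1a, Akt1, Nras, Afp and Gpc3 and the acinar markers. A few genes that this rule names are not reported here and are left out of the figures. Other members were named after their values were seen. Searches for seed sites and E-boxes were also chosen after the results were seen. Figures were drawn with matplotlib 3.10.9.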

Additional observations from a re-analysis of the deposited data

How the results depend on the processing

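Of the 2167 calls, the total stayed within 1.5 times under DESeq2 size factors, upper-quartile factors, the DESeq2 Wald test, both filters on low counts, the 6 HCC libraries alone and removal of acinar markers, between 1820 and 2448. Without a fold threshold 3777 genes were called (2140 higher, 1637 lower), and glmTreat, which tests against a fold of 1.5 itself, called 468 (413 higher, 55 lower). Leaving out 1 HCC liver at a time gave 1433 (without treated replicate 3) to 2660 (without treated replicate 4) calls, 1015 to 1511 higher and 415 to 1149 lower, and the lower genes numbered 565 without untreated replicate 2, 481 without untreated replicate 3 and 415 without treated replicate 3. With a replicate block in the 6 HCC libraries, 958 genes were called, 676 higher and 282 lower. Over 11995 genes, deviations of livers with the same replicate number correlated at −0.19, −0.24 and −0.39, and those with different numbers at −0.029 to 0.25. Deviations were taken from the mean of each group, which forces some of these correlations to be negative. They therefore cannot decide whether the replicate numbers mark pairs or batches. With the block, 159 of 187 named genes kept their call or lack of it, and the count of called members moved by over 1.5 times in 30 of 45 lists. Among them, higher P450 genes numbered 11, plasma protein genes 13, amino acid breakdown genes 21, fatty acid oxidation genes 5 and hepatocyte markers 1, and lower mitotic genes 5, matrix genes 13 and tumor markers 4.

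For the 188 named genes, 1066 of 1128 values without 1 liver kept direction and side of the threshold, 30 lost it, 25 gained it and 7 changed sign. Without treated replicate 2 the log2 fold changes that turned were Cela2a at −0.63, Cpa1 at −3.45, Ctrl at −0.43, Pnlip at −3.79, Prss2 at −3.21 and S100a8 at −0.069, and without untreated replicate 4 Ltf at −0.17. Over all 6 fits without 1 liver these 7 genes ranged up to 6.37, 5.45, 3.35, 5.84, 4.94, 0.40 and 0.80 in the same order. DESeq2 size factors turned none of the 188 named genes and the Wald test none of the 180 it has a value for, and each moved 3 past the threshold. DESeq2 called 26 mitotic genes lower. The cause of these differences was not tested. With 3 livers a group, 2-fold changes are found less often than 4-fold changes on simulated counts, and genes that missed a call may still differ.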
